A study of Mus musculus with 4 samples.

Results

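The genes described here are 10 known targets of the FOXO transcription factors, measured in mouse macrophages with and without interleukin-4 (IL-4). They are Fbxo32, Klhl24, Ccng2, Cdkn1b, Sesn1, Trp53inp1, Klf2, Tsc22d3, Cxcr4 and Irs2, 10 of the 18193 genes named by the arrays' annotation. The list was chosen on values of these same 4 arrays, so every level and difference of these genes is a description with no test. They were found by symbol, and 25 probe sets name only 1 of them.

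The macrophages were washed out of the peritoneal cavity of mice given thioglycolate, which irritates the cavity and recruits them. Mice were wild type (WT) or carried the label Dap12-KO, and the cells spent 18 hours on Permanox slides with no addition or with IL-4, the cytokine best known for alternative activation of macrophages. DAP12 is the signalling adaptor encoded by Tyrobp, and the stated aim was to see how its loss alters expression at rest and in the response to IL-4. Each of the 4 groups has 1 array, so no value has a replicate error, and the number of arrays limits the precision. Strain, age and sex of the mice, how many gave cells to an array, and how the knockout was made are not given in the sources used here.

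FOXO proteins are forkhead transcription factors that switch on genes of cell cycle arrest, stress resistance, protein breakdown and metabolism. When growth factors or cytokines activate PI3-kinase, the kinase AKT phosphorylates FOXO, which then leaves the nucleus, so their targets are known to be low under growth factor signalling and high when it is withdrawn. In immune cells FOXO factors are known for keeping resting lymphocytes quiescent. In macrophages they are known from responses to insulin and to inflammatory stimuli.

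All levels below are log2 probe set values, given in 1 fixed order: WT untreated first, then WT with IL-4, then the Dap12-KO-labelled untreated array and last the Dap12-KO-labelled IL-4 array. A difference of 1 on this scale is 2-fold, the size at which genes were counted as higher or lower. A gene was compared where its highest value reached 6.39, the median of all values, called the level floor, and 12767 genes did so. All 10 FOXO targets passed it, 9 of them on every array, while Cdkn1b with IL-4 on the array labelled Dap12-KO did not.

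The Dap12-KO-labelled IL-4 array stood apart from the other 3. The middle 50% of its probe sets spanned 2.54 log2 units, against 3.19 to 3.25 on the others. Bright genes thus tended to read lower there and dim ones higher. Tyrobp itself read 14.39, 14.13, 14.03 and 13.27, bright on all 4 arrays, so the label of the knockout arrays is not borne out by this probe set. A probe set outside the deleted part of the gene would check nothing, and where it lies was not examined here. Directions between genotypes rest on the labels. All 10 macrophage markers were above the floor on all 4 arrays.

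Known FOXO binding sequences were looked for at the start of the genes, to show what such a site looks like beside the values. RefSeq promoters of build GRCm38.p6, from 250 bases before a gene's start to 50 after it, were at hand for 7 of the 10 genes, with 10 starts in all. The motif GTAAACA, on either strand, was in 3.65% of all 32851 promoters and in 1 of the 10, 1 of the starts of Sesn1. The related motif CAAAACA was in 6.28% of all promoters and in 2 of the 10, those of Ccng2 and Irs2. Either motif was in 9.63% of all promoters. These matches are descriptions of the letters and not binding sites.

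The stretches around the 3 matches follow, read 5′ to 3′ along the gene's own strand, with the motif or its reverse complement in capitals. The Ccng2 stretch is chr5:93267517-93267572 (plus strand), and its motif ends 10 bases before the gene's start. That of Irs2 is chr8:11008930-11009006 (minus strand), with the motif ending 31 bases before the start. That of Sesn1 is chr10:41810585-41810613 (plus strand), with the motif from 22 to 28 bases after the start.
Ccng2: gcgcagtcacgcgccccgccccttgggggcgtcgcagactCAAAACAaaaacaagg
Irs2: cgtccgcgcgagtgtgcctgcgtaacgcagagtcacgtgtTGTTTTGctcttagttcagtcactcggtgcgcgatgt
Sesn1: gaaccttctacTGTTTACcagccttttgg

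Across the members, the Dap12-KO-labelled untreated array was the highest of the 4 for 9 of 10 genes, and for 8 of 10 it was at least 2-fold above each other array. Over all genes above the floor these shares were 28.7% and 1.86%. Since the genes were chosen with these values in view, nothing is read from the excess. After cyclic loess, a rescaling that removes level-dependent offsets between arrays, the counts were 9 and 6 of 10, against 26.5% and 1.28% of all genes. Irs2 was the exception, with its highest value on the Dap12-KO-labelled IL-4 array.

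**Figure D1:**
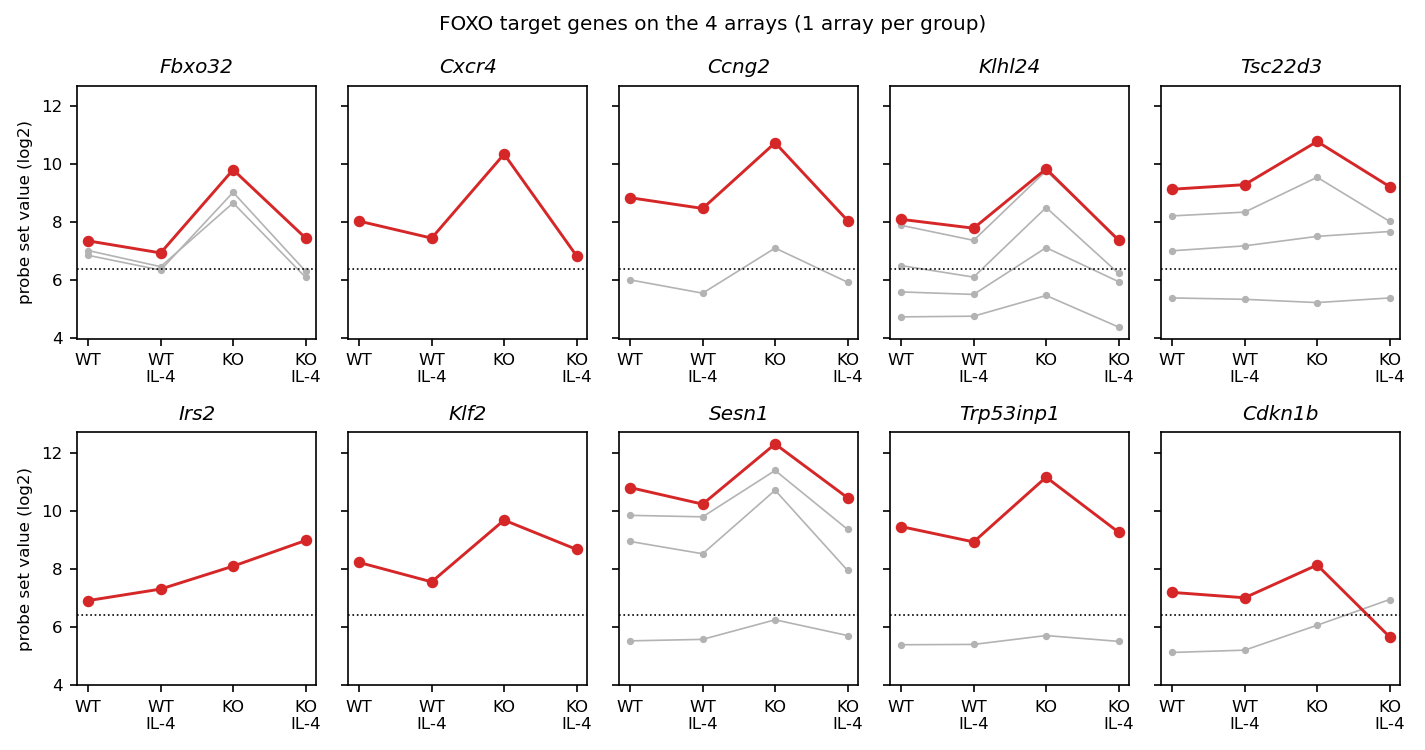
Log2 probe set values (y axis) of each gene on the 4 arrays (x axis, KO is the label Dap12-KO). Red is the probe set used for the gene, grey its other probe sets, and the dotted line the level floor at 6.39. For 9 of 10 genes the red line peaks on the Dap12-KO-labelled untreated array, while Irs2 is highest on the Dap12-KO-labelled IL-4 array.

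Fbxo32 and Klhl24 feed proteins to ubiquitin ligases. Fbxo32 (atrogin-1, chr15:58175879-58214892), the F-box protein known as a FOXO target in wasting muscle, read 7.36, 6.94, 9.81 and 7.46. The Dap12-KO-labelled untreated array was thus the only high one, and the other 3 lay within 0.51 of each other. It was 5.47-fold above WT untreated, rank 9 of 12767 genes in that comparison, and IL-4 was accompanied by a 5.11-fold lower value on the Dap12-KO-labelled arrays. Its other probe sets, of which there are 2, had the same shape, at 6.86, 6.35, 9.03 and 6.31 and at 7.03, 6.47, 8.67 and 6.10.

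Klhl24 (chr16:20097553-20129226), a kelch-like adaptor of cullin-3 ligases, read 8.10, 7.79, 9.84 and 7.38. Again the Dap12-KO-labelled untreated array alone was high, 3.34-fold above WT untreated and 5.51-fold above the Dap12-KO-labelled IL-4 array. The gene has 5 probe sets, 4 of them above the floor. Between the untreated arrays these 4 differed by 1.53 to 2.0, and between the Dap12-KO-labelled arrays by −2.46 to −1.17, all past 2-fold.

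Ccng2 and Cdkn1b act in cell cycle arrest. Ccng2 (chr5:93267573-93276231), the unconventional cyclin G2 that is found in cells leaving the cycle, read 8.85, 8.48, 10.74 and 8.06. The Dap12-KO-labelled untreated value was 3.71-fold above WT untreated, and the value with IL-4 was 6.41-fold below it. A second, dimmer probe set gave 6.01, 5.56, 7.11 and 5.93, with differences of 1.10 and −1.18 for the same comparisons.

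Cdkn1b (p27, chr6:134920401-134925525), the inhibitor of cyclin-dependent kinases, read 7.19, 7.0, 8.13 and 5.65. Its untreated difference of 0.94 was the only one of the 10 under 2-fold. The difference of −2.48 with IL-4 ends below the level floor, so its size rests on a background reading. The other probe set went the other way with IL-4, from 6.05 to 6.94 between the Dap12-KO-labelled arrays, and read 5.12 and 5.19 in WT. Both probe sets differed by 0.94 between the untreated arrays, but the second read 5.12 and 6.05 there, both below the floor, so only the first bears on that difference. The IL-4 difference of Cdkn1b has no settled direction.

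Sesn1 and Trp53inp1 belong to the stress response and are also known as p53 targets. Sesn1 (chr10:41810574-41908436), a sestrin that restrains the growth kinase complex mTORC1, read 10.80, 10.23, 12.30 and 10.45. The 3 arrays other than the Dap12-KO-labelled untreated one lay within 0.57 of each other. Of its 4 probe sets 3 were above the floor, and they differed by 1.5, 1.55 and 1.77 between the untreated arrays and by −1.85, −2.03 and −2.76 between the Dap12-KO-labelled arrays.

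Trp53inp1 (chr4:11156441-11174379), a stress protein that takes part in autophagy and p53 activity, read 9.45, 8.92, 11.16 and 9.26. Its shape was that of Sesn1, with the Dap12-KO-labelled untreated array 3.26-fold above WT untreated and 3.72-fold above the Dap12-KO-labelled IL-4 array. The second probe set stayed below the floor on all 4 arrays, between 5.38 and 5.70.

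Klf2 and Tsc22d3 encode regulators of transcription that are known to dampen inflammatory gene expression. Klf2 (chr8:72319062-72321654), the Krüppel-like factor of quiescent lymphocytes and monocytes, read 8.22, 7.55, 9.68 and 8.67. Both Dap12-KO-labelled arrays were above both WT arrays. The difference with IL-4 was −0.67 in WT and −1.01 on the Dap12-KO-labelled arrays, and the latter was −0.39 after cyclic loess, so it did not keep its side of 2-fold.

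Tsc22d3 (GILZ, chrX:140539528-140600522), best known as a glucocorticoid-induced leucine zipper protein, read 9.14, 9.30, 10.78 and 9.23. The other 3 arrays, apart from the Dap12-KO-labelled untreated one, lay within 0.16 of each other, the narrowest such range among the 10 genes. The next probe set agreed, at 8.22, 8.35, 9.55 and 8.03, while the third read 7.02, 7.19, 7.51 and 7.68 and was not lower with IL-4. The fourth was below the floor.

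Cxcr4 and Irs2 act at the cell surface and just beneath it. Cxcr4 (chr1:128588199-128592299), the receptor of the chemokine Cxcl12, has 1 probe set and read 8.04, 7.45, 10.35 and 6.84. It was 4.96-fold higher on the Dap12-KO-labelled untreated array than in WT, rank 14 of 12767, and 11.4-fold lower with IL-4 on the Dap12-KO-labelled arrays, with rank 3 from the bottom of 12767. After cyclic loess these differences were 2.39 and −2.94. Its ligand Cxcl12 was near the floor, at 6.58, 6.33, 6.33 and 6.75.

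Irs2 (chr8:10984681-11008929), an adaptor that both the insulin receptor and the IL-4 receptor phosphorylate and that leads to PI3-kinase, has 1 probe set. It read 6.90, 7.30, 8.09 and 8.97, higher with IL-4 in both genotypes and higher on both Dap12-KO-labelled arrays. The difference with IL-4 was 0.40 in WT and 0.88 on the Dap12-KO-labelled arrays, and 0.44 and 1.36 after cyclic loess. By the probe sets used it was the only one of the 10 genes that was higher with IL-4 on both pairs of arrays.

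Set against all genes, the comparison of the untreated arrays had 9 of 10 FOXO targets higher at 2-fold and 0 lower, with a median difference of 1.67. Over all 12767 genes 3.12% were higher and 3.41% lower, with a median of 0.03. This count was 9 of 10 after cyclic loess, quantile normalization and median centring alike, against 3.64%, 3.18% and 3.01% of all genes. Of the single probe sets of these genes, 18 of 21 above the floor were higher at 2-fold and 0 lower. These are repeat readings of the same genes on the same arrays, and the share over all probe sets was not computed.

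With IL-4 on the Dap12-KO-labelled arrays, 9 of 10 were lower at 2-fold and 0 higher, with a median of −2.13. These 9 include Cdkn1b, at −2.48 by the probe set used and 0.89 by its other one, so its direction is not settled. Over all genes 17.6% were lower and 8.04% higher, with a median of −0.40. After cyclic loess 7 of 10 were lower and 1, Irs2, higher, with a median of −1.55. The split over all genes then turned from 1026 higher and 2249 lower to 1250 higher and 754 lower. Tsc22d3, at −0.89, and Klf2, at −0.39, were those that no longer reached 2-fold. By the median over each gene's probe sets the members' median was −1.49. This comparison and that of the untreated arrays share the Dap12-KO-labelled untreated array, so 1 high reading there enters both with opposite sign.

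In WT, 0 of the 10 differed by 2-fold with IL-4. Over all genes 1.21% were higher and 1.25% lower. The FOXO targets differed by −0.67 (Klf2) to 0.40 (Irs2), 8 of the 10 downward, with a median of −0.39 against −0.03 over all genes. At 1.5-fold, 2 of the 10 were lower, Klf2 (−0.67) and Cxcr4 (−0.59), the latter only just past that threshold. Over all genes 3.34% lay below Klf2 and 4.27% below Cxcr4.

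**Figure D2:**
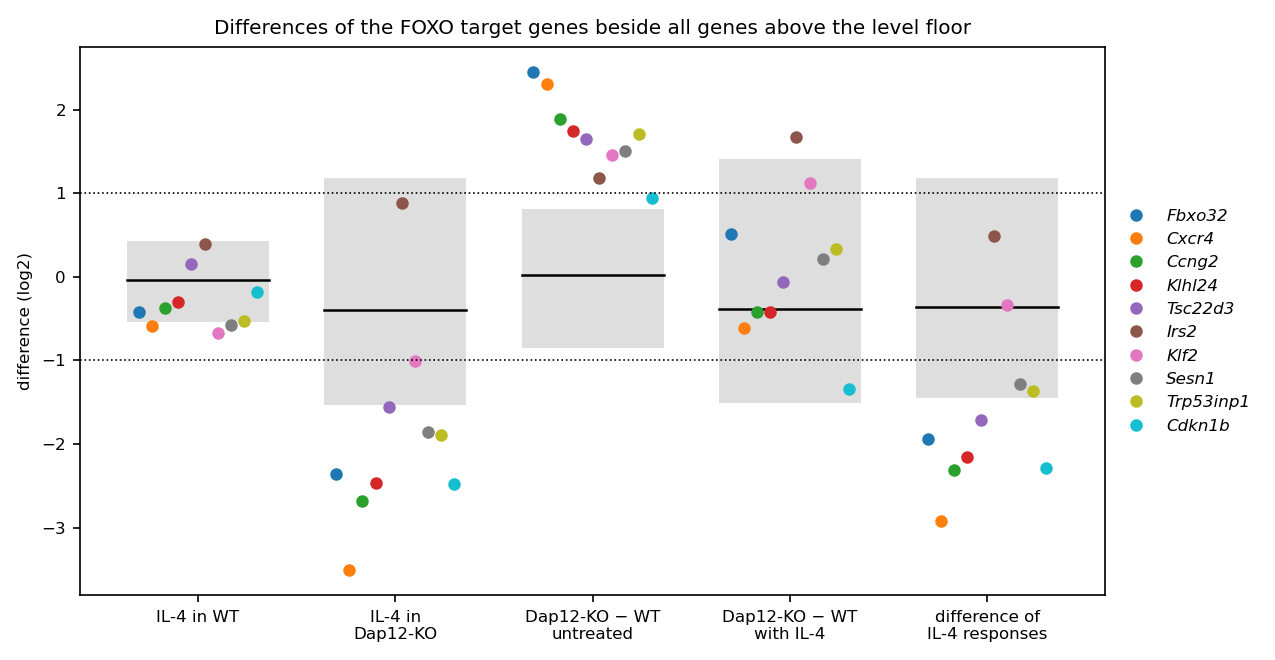
Log2 differences (y axis) of the 10 genes in each of the 5 comparisons (x axis). The grey band covers the central 90% of all 12767 genes, the black line is their median, and dotted lines mark 2-fold. All 10 genes lie above the band between the untreated arrays, and 8 of 10 point below 0 with IL-4 in WT, none past 2-fold.

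Between the arrays with IL-4, 2 of the 10 were higher on the one labelled Dap12-KO, Irs2 (1.67) and Klf2 (1.12), and 1 was lower, Cdkn1b (−1.35). Over all genes 10.9% were higher and 17.6% lower, with a median of −0.39 against 0.08 for the FOXO targets. After cyclic loess 4 were higher, Fbxo32 (1.04) and Trp53inp1 (1.06) having joined, and the median was 0.78 against 0.13. The split over all genes was 1387 higher and 2245 lower as deposited, and 1610 and 681 after cyclic loess. The Cdkn1b difference was 0.20 by the median over its probe sets.

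The IL-4 difference on the Dap12-KO-labelled arrays minus that in WT was lower than −1 for 8 of 10 genes and above 1 for 0. It ran from −2.92 (Cxcr4) to 0.49 (Irs2), and the median was −1.83. The Dap12-KO-labelled untreated array enters this value as well, so it is not separate from the 2 comparisons that share that array. The 8 include Cdkn1b, at −2.29 by the probe set used and 0.81 by its other one. Over all genes 14.8% were lower and 8.15% higher, with a median of −0.36. After cyclic loess 6 of 10 were lower, with a median of −1.28, and all genes turned from 1041 higher and 1893 lower to 1136 and 713. By the median over probe sets 5 of 10 were lower, with a median of −1.17.

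**Figure D3:**
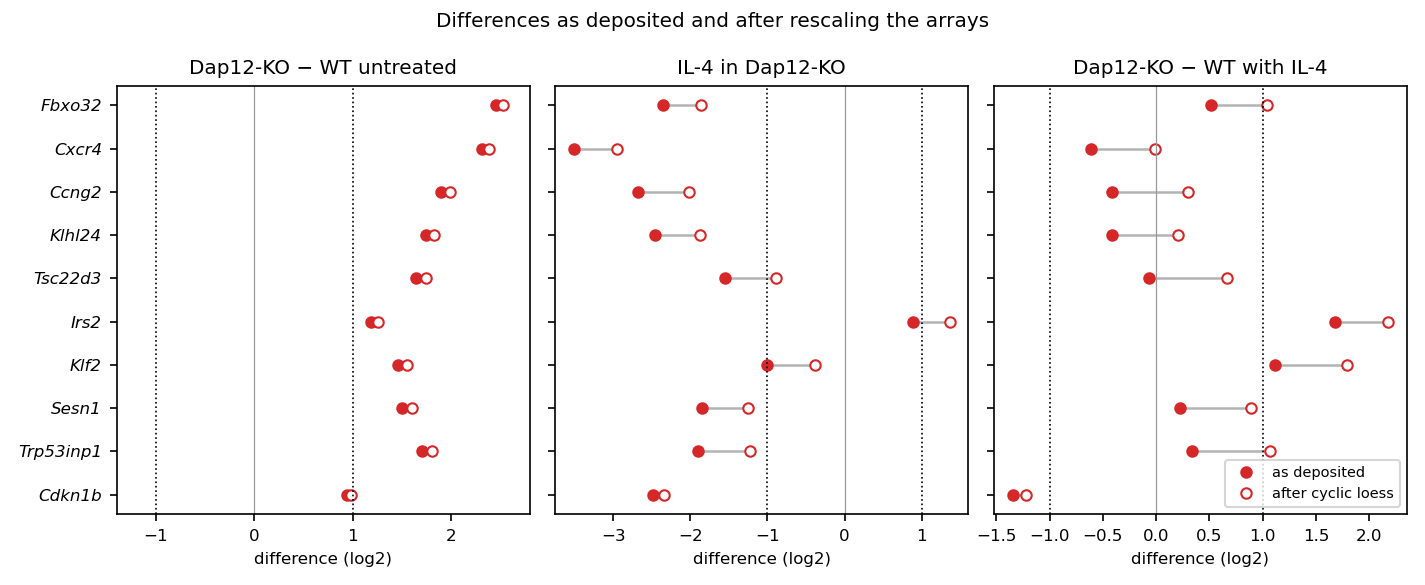
Log2 differences (x axis) of each gene (y axis) in 3 comparisons, as deposited (filled) and after cyclic loess (open), with dotted lines at 2-fold. Rescaling moves the untreated comparison little, while values that use the Dap12-KO-labelled IL-4 array move upward, Klf2 from −1.01 to −0.39 in the middle panel.

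Of the FOXO factors themselves, Foxo1, Foxo3 and Foxo4 were measured and all passed the floor. Foxo3 read 8.35, 8.13, 9.40 and 7.55 by its brightest probe set, the shape of most of the 10 targets. Its 3 probe sets disagreed, with differences of −0.04 to 1.05 between the untreated arrays and −1.85 to 1.05 with IL-4 between the Dap12-KO-labelled ones. Foxo1 read 8.52, 8.38, 8.92 and 7.76, with 4 probe sets at 0.25 to 0.51 between the untreated arrays and −1.16 to 0.56 with IL-4. Foxo4 read 7.18, 7.03, 7.05 and 6.97, without a 2-fold difference. For Foxo1 and Foxo3 the IL-4 difference thus has no settled direction.

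Receptors, PI3-kinase subunits and kinases upstream of FOXO were mixed. Between the untreated arrays 2 of 20 above the floor were higher on the one labelled Dap12-KO and 2 lower, against 3.12% and 3.41% of all genes, with a median of 0.20. Higher were the PI3-kinase subunits Pik3r5 (1.22) and, by the probe set used, Pik3cd (1.11), and lower the subunit Pik3cb (−1.63) and the growth factor receptor Igf1r (−1.01). With IL-4 on the Dap12-KO-labelled arrays 8 of 20 were lower and 1 higher, with a median of −0.85, against 17.6% lower, 8.04% higher and a median of −0.40 over all genes. After cyclic loess 0 were lower and 1 higher, against 5.91% and 9.79% of all genes, with a median of −0.23 against 0.09. The 1 higher gene was Pik3cd, the leukocyte PI3-kinase catalytic subunit, at 9.58, 10.10, 10.69 and 13.42. In both comparisons only that 1 of its 5 probe sets above the floor was positive and the other 4 were negative, down to −0.42 between the untreated arrays and −1.14 with IL-4, so Pik3cd has no settled direction.

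Cofactors and regulators of FOXO turnover had counts near those of all genes. Between the untreated arrays 0 of 18 were higher and 1 lower, the methyltransferase Prmt1 (−1.14), against 3.12% and 3.41% of all genes, and the median was 0.03 in both. With IL-4 on the Dap12-KO-labelled arrays 4 of 18 were lower, 22.2% against 17.6% of all genes, and 0 higher against 8.04%, with a median of −0.55 against −0.40. After cyclic loess 0 were lower and 0 higher, against 5.91% and 9.79% of all genes, with a median of −0.07 against 0.09. Among them were Skp2, the ubiquitin ligase subunit that targets Cdkn1b, at −1.36 and the acetyltransferase Ep300 at −1.31. The deacetylase Sirt1 was also lower, at −1.24.

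A longer list of other genes known as FOXO targets had 33 of 41 measured members above the floor. Like the other lists here, it was chosen with earlier results of these data known. Its counts are thus descriptions with no test. Between the untreated arrays 4 were higher on the one labelled Dap12-KO and 0 lower, against 3.12% and 3.41% of all genes, with a median of 0.39 against 0.03. These were Mxi1 (1.44), an antagonist of MYC, the mitophagy kinase Pink1 (1.39), the pro-death BCL2 relative Bcl2l11 (1.2) and the autophagy kinase Ulk1 (1.08). For Bcl2l11 2 of 5 probe sets reached 2-fold and for Mxi1 1 of 2. Further members lay just below 2-fold, such as the growth arrest gene Gadd45a at 0.93. Trim63, the muscle ubiquitin ligase often measured beside Fbxo32, was below the floor on all 4 arrays.

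With IL-4 on the Dap12-KO-labelled arrays 14 of these 33 were lower and 1 higher, against 17.6% and 8.04% of all genes, with a median of −0.80 against −0.40. After cyclic loess 7 were lower and 2 higher, against 5.91% and 9.79%, with a median of −0.39 against 0.09. The sphingosine phosphate receptor S1pr1, a target of both FOXO1 and KLF2 in lymphocytes, read 8.18, 6.64, 9.01 and 6.39, so it was lower with IL-4 in both genotypes, with −1.54 in WT and −2.62 on the Dap12-KO-labelled arrays. The last S1pr1 value lies at the level floor, so the size of that difference rests on a reading near background. Gadd45a and the retinoblastoma relative Rbl2 differed by −2.39 and −2.05. The other probe set of Rbl2 differed by −0.85. The factor Klf4, at 1.53, was the 1 higher gene. In WT 2 of the 33 were lower with IL-4, S1pr1 and the superoxide dismutase Sod2, and 0 higher, against 1.25% and 1.21% of all genes.

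**Figure D4:**
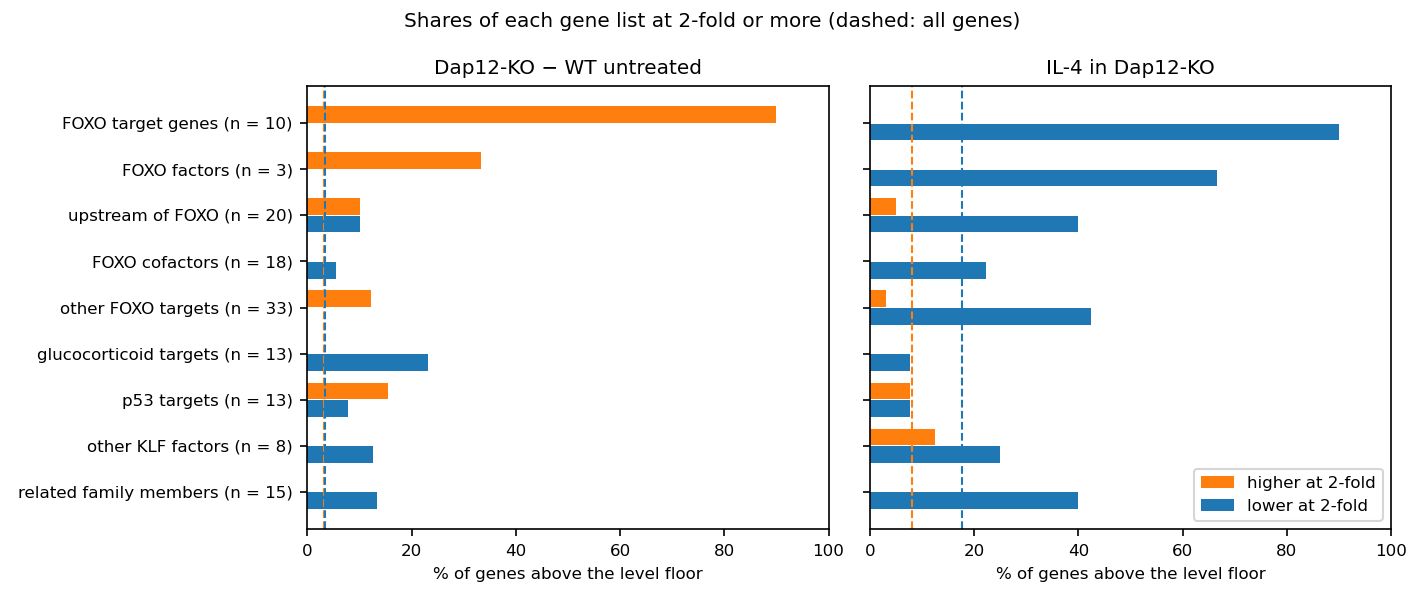
Share of each gene list (y axis, with the number of genes above the floor) that was higher (orange) or lower (blue) at 2-fold or more, in % (x axis), in the comparison of the untreated arrays (left) and with IL-4 on the Dap12-KO-labelled arrays (right). Dashed lines give the shares over all genes, 3.12% and 3.41% on the left and 8.04% and 17.6% on the right, and the 10 FOXO targets, left out of the other lists, stand at 9 of 10 in each.

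Markers of other cells differed between the arrays in both directions. These are bulk samples, so fewer cells of a type and less RNA per cell cannot be told apart. Of 9 measured B cell markers 4 were above the floor on all 4 arrays. Their levels were 8.64, 9.22, 9.76 and 8.84 for Ms4a1 and 7.98, 8.39, 8.93 and 8.11 for Cd79b. Cd79a and Blk were likewise highest on the Dap12-KO-labelled untreated array, at 8.48 and 8.20. The other 4 that passed the floor, Pax5, Fcer2a, Ebf1 and Vpreb3, did so only on the Dap12-KO-labelled IL-4 array, at 6.67 to 6.88, and were higher there than on the untreated one by 0.67 to 0.76. Dim probe sets tended to read higher on that array, whose 25th percentile was 5.47 against 5.29 to 5.31 on the others. After cyclic loess the differences of these 4 genes were 0.45 to 0.55. The mean over the B cell list was 6.86, 6.86, 7.26 and 7.18. Among mast cell markers Cma1 read 7.64, 7.26, 8.98 and 8.01, and Cpa3 7.07, 6.89, 8.0 and 6.50, with 3 of 6 below the floor on all arrays and list means of 6.30, 6.25, 6.91 and 6.41. Of 9 T and NK cell markers 5, Cd3d and Cd3g among them, were below the floor throughout, and the list means were 5.90, 6.01, 6.04 and 6.12. The 4 that passed it had different shapes, with Cd28 at 5.96, 5.71, 7.53 and 4.95, Cd2 at 6.52, 6.52, 6.84 and 6.35, Cd3e at 6.84, 6.52, 6.78 and 7.16 and Gzma at 6.22, 7.69, 5.97 and 6.51.

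The fibroblast markers that passed the floor, collagens and a proteoglycan, were lower on the Dap12-KO-labelled untreated array. Of 10 mesothelium and fibroblast markers 4 passed the floor, and 3 of these, the collagens Col3a1 (−1.30) and Col1a2 (−1.26) and the proteoglycan Dcn (−1.08), were at least 2-fold below WT untreated. Col3a1 read 7.30, 7.32, 6.0 and 7.24, and the fourth marker, Krt19, differed by 0.13. Among the 10 macrophage markers 1 was higher at 2-fold and 0 lower in this comparison, the efferocytosis receptor Mertk, at 9.32, 9.61, 11.29 and 9.89. The part of B, T, mast and fibroblast cells in the levels of the FOXO targets was not tested.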

How the data were processed

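Total RNA of 4 samples was amplified in 2 cycles, labelled with biotin and hybridised to 1-colour Affymetrix arrays, per the labels' protocols. The authors used RMA, per the submitters' processing notes, and the deposited log2 values lie between 4.00 and 15.17. Amplification and normalization can change how large a difference reads, and no detection call stands behind a value.

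GEO's platform annotation named the probe sets, and Entrez identifiers gave current RefSeq symbols (GRCm38.p6, 34741 matched). Of 45101 probe sets 34945 named 1 gene, and those with several or none were left out. Each gene was read by its probe set with the highest mean. Log2 differences, counts at 2-fold and medians were computed with Python 3.11.15, numpy 2.4.6 and pandas 2.3.3, and tested on simulated data. Cyclic loess (3 iterations) and quantile normalization came from limma 3.58.1 in R 4.3.3. Other alternatives were other floors, 1.5-fold and 3-fold thresholds, median centring and the median over probe sets.

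The members and lists were chosen with earlier results of these data known. Named genes are the 10 members, Tyrobp, the FOXO factors, the 3 genes of each other list with the largest difference in each of 2 comparisons, and the 5 genes nearest the members' mean profile. Igf1r, Ulk1, Sod2, Trim63, Cxcl12, Sesn2, Sesn3, Cdkn1a, Ccng1, Cdkn1c, Cdkn2c, Cdkn2d, Trp53inp2 and the marker genes were picked after their values were seen.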

Additional observations from a re-analysis of the deposited data

Results flagged for a closer look

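Tsc22d3, by the probe set used, differed in sign between the genotypes. With IL-4 its value differed by 0.16 in WT and by −1.55 on the Dap12-KO-labelled arrays, or −0.89 there after cyclic loess. The next probe set had the same signs, at 0.13 and −1.52, but the third differed by 0.17 in both genotypes. With 1 array per group each sign rests on a single pair of arrays, and the difference between them was not tested.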

How the results depend on the processing

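No paired analysis was possible because each group has 1 array. A value counts here as moved when it changed by over 1.5-fold, and a count when it changed by over 1.5 times. By this rule the members' counts and medians between the untreated arrays did not move under any of the 8 alternatives. The number higher there was nevertheless 6 of 10 at 3-fold, against 9 at 2-fold, a change that only just stays within the rule. Shares of all genes called at 1.5-fold, at 3-fold, at other floors and by the median over probe sets are not given here. Counts under those settings are thus not read as an excess. With IL-4 in WT, the number lower was 2 at 1.5-fold, and 4.27% of all genes lay below Cxcr4, the weaker of the 2. With IL-4 on the Dap12-KO-labelled arrays, the number higher was 1 at 1.5-fold, with cyclic loess and with quantile normalization. Over all genes 9.79% were higher with cyclic loess and 11.8% with quantile normalization. The members' median was −1.49 by the median over probe sets. Between the arrays with IL-4, the number higher was 1 at 3-fold, 4 with cyclic loess (12.6% of all genes) and 1 with median centring (8.47%). The number lower was 0 at the floor of 8.38 (75th percentile), at 3-fold and by the median over probe sets, and 2 at 1.5-fold. The median there was 0.78 with cyclic loess. For the difference of IL-4 responses, 1 was higher with quantile normalization, against 11.4% of all genes. By the median over probe sets 5 were lower with a median of −1.17. The Cdkn1b difference between the arrays with IL-4 reversed to 0.20 by the median over probe sets. Of the 50 single differences of the members, 16 moved with cyclic loess, 5 with quantile normalization and 12 by the median over probe sets. The cause was not tested.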

Other observations

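Some of the 10 genes are also known targets of other regulators, and those lists did not share one direction. Among 13 other glucocorticoid receptor targets above the floor, between the untreated arrays 0 were higher on the Dap12-KO-labelled one and 3 lower, with a median of −0.28. Lower were the metallothionein Mt2 (−2.02), the EGF receptor inhibitor Errfi1 (−1.43) and the chaperone partner Fkbp5 (−1.19), while Tsc22d3 was higher by 1.65. For Errfi1 and Fkbp5 1 of 2 probe sets above the floor reached 2-fold, the others being at −0.63 and −0.45. Among 13 other p53 targets 2 were higher, the RNA-binding protein Zmat3 (1.27) and Phlda3 (1.25), an inhibitor of AKT. Another, Btg2, was lower (−1.22, and −0.99 by its other probe set), and the median of the 13 was 0.27. Among 8 other Krüppel-like factors 0 were higher at 2-fold and 1 lower, Klf7 (−1.22), with Klf3 just below the threshold at 1.0 and a median of 0.03. Over all genes 3.12% were higher and 3.41% lower in this comparison. With IL-4 on the Dap12-KO-labelled arrays 1 of the 13 glucocorticoid receptor targets, 1 of the 13 p53 targets and 2 of the 8 Krüppel-like factors were lower, against 17.6% of all genes, and 0, 1 and 1 were higher, against 8.04%. After cyclic loess 0, 0 and 1 were lower, against 5.91% of all genes, and 2, 2 and 1 were higher, against 9.79%.

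Relatives of the 10 genes differed among themselves. Of 15 family members above the floor 0 were higher and 2 lower on the Dap12-KO-labelled untreated array, against 3.12% and 3.41% of all genes. Lower were the cell cycle inhibitor Cdkn2b (−1.82) and, by the probe set used, Tsc22d1 (−1.32). For Tsc22d1 3 of 6 probe sets were lower at 2-fold, but 2 were positive, up to 0.72, so it has no settled direction. Of the 15, 6 were lower and 0 higher with IL-4 on the Dap12-KO-labelled arrays, against 17.6% and 8.04% of all genes, and after cyclic loess 5 and 1, against 5.91% and 9.79%. Some were highest on the Dap12-KO-labelled untreated array, as most of the 10 were, with smaller differences from WT. These included the cell cycle inhibitors Cdkn1c (0.73 between the untreated arrays and −1.75 with IL-4), Cdkn2d (0.74 and −1.45) and Cdkn2c (0.64 and −1.14), and Trp53inp2 (0.44 and −1.72). The sestrins Sesn2 and Sesn3 differed by −0.31 and 0.69 between the untreated arrays, Cdkn1a by −0.63 and Ccng1 by 0.45.

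The 5 other genes whose centred values lay closest to the mean profile of the 10, over the 4 arrays, were Selenoh, Tmem86a, Slc49a4, Naip5 and Fmo5. Selenoh, a selenoprotein, read 7.86, 7.59, 9.53 and 7.60, and Naip5, an intracellular receptor for flagellin, 9.63, 9.31, 11.34 and 9.58. Their Euclidean distances to that profile were 0.07 to 0.14 log2 units, against 0.19 for Sesn1, the closest of the 10, and 2.10 for Irs2, the farthest. The 5 were picked for the smallest distances among all other genes above the floor, so nothing is read from that order.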
